A study of Arabidopsis thaliana with 6 samples.

Results

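PHV, LHW, CLE41, GUT2 and AT5G02460 are 5 genes of vascular patterning and of xylem wall synthesis in Arabidopsis thaliana, and each is named by 1 probe set of the ATH1 array. They were taken by name from the platform annotation, in which probe sets with a single gene name cover 13350 genes. RNA of whole plants was hybridised to 6 Affymetrix arrays in 3 groups of 2. The first group is wild type of the Wassilewskija accession, sample name WS. The second is the octopus mutant, sample name DYG25, and the third a line overexpressing OCTOPUS, sample name 35SDYG25, a prefix used for constructs under a constitutive viral promoter. All plants grew untreated on MS/2 medium at 20 °C and 70% hygrometry. The labels give no age, no mutant allele, no accession for the mutant or the overexpressor, and no statement that the arrays of a group came from separate cultures, so a p-value here speaks only for the spread among these arrays, part of which can be technical.

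Vascular strands form from procambial cells, which divide and then differentiate as xylem on one side and phloem on the other. Transcription factors of the class III homeodomain leucine zipper family, such as PHV (PHAVOLUTA, AT1G30490), favour upper leaf side and xylem identity, and microRNAs confine their transcripts. LHW (LONESOME HIGHWAY, AT2G27230) encodes a bHLH-type protein that pairs with TMO5 and promotes the divisions that widen the vascular cylinder of the root. CLE41 (AT3G24770) encodes a precursor of the peptide TDIF, which phloem cells secrete and the procambial receptor PXY perceives, and which keeps procambial cells dividing and holds back xylem formation. AT5G02460 belongs to the Dof zinc finger family. GUT2 (AT1G27440), also called IRX10, encodes a glycosyltransferase that extends the xylan backbone of secondary walls, which are thick in xylem vessels and fibres. OCTOPUS (OPS) encodes a membrane protein of the young phloem lineage.

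None of the 4 transcripts that were tested passed in any comparison of the 3 groups, and the intervals around their differences were of unequal width. AT5G02460 lay too low to be tested. The values below are log2 GCRMA expression values, on which 1 unit is a doubling, and a level of 1 probe set says nothing about that of another. Probe sets averaging 4 or more on the 6 arrays were tested, which took in 4 of the 5 and left out AT5G02460. On the 6 arrays the median lay between 4.40 and 4.49 and the 25th percentile between 2.54 and 2.70, and tested probe sets correlated at 0.984 to 0.989 within groups and at 0.939 to 0.975 between groups. OPS itself stood at 9.68 ± 0.22 (SD, n = 2) in the overexpressor, at 2.56 ± 0.13 in the wild-type plants and at 2.5 ± 0.042 in the mutant, so it checks the label of the overexpressor and not that of the mutant. The number of arrays limits the precision. In RNA of whole plants, fewer cells of a type and less RNA per cell cannot be told apart.

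**Figure D1:**
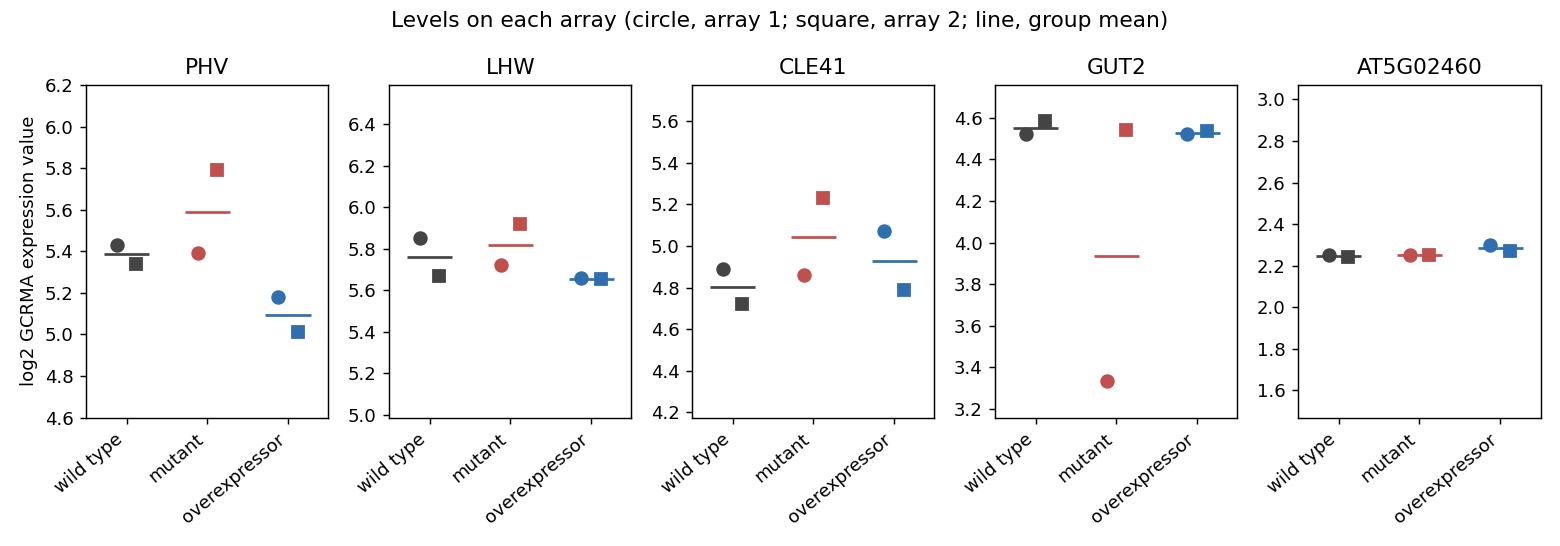
Log2 GCRMA expression values of the 5 genes on each of the 6 arrays, with circles for array 1, squares for array 2 and lines for the mean of each group; all panels span the same height on the log2 axis. PHV lies lowest in the overexpressor, GUT2 is at 3.33 on mutant array 1 and between 4.52 and 4.58 on the other 5 arrays, and AT5G02460 stays between 2.24 and 2.30.

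PHV was at 5.43 and 5.34 on the wild-type arrays, at 5.39 and 5.79 on the mutant arrays and at 5.18 and 5.01 on the overexpressor arrays. Both overexpressor values lay under all 4 others, while wild type and mutant overlapped. The group means were 5.59 ± 0.28 (SD, n = 2) in the mutant, 5.38 ± 0.064 in wild type and 5.095 ± 0.12 in the overexpressor. The mutant exceeded wild type by 0.20 log2 units (SE 0.179, 95% interval -0.22 to 0.63), with a limma adjusted p of 0.487. It was 0.005 without mutant array 2 and 0.405 without mutant array 1. The overexpressor stood at -0.29 against wild type (95% interval -0.71 to 0.13, limma adjusted p = 0.399). Between the lines the difference was -0.495 in the overexpressor against the mutant (SE 0.179), a level 1.41-fold lower. This was the smallest p of the 5 genes, 0.028 before adjustment and 0.0992 after it in limma, and it did not pass. Without mutant array 2, the highest for PHV, the difference was -0.295, and without mutant array 1 it was -0.695.

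LHW varied least among the tested genes, over 0.26 log2 units on the 6 arrays. It stood at 5.85 and 5.67 on the wild-type arrays, at 5.72 and 5.92 on the mutant arrays and at 5.66 on each overexpressor array. The overexpressor values were below all others, by a gap of 0.013 to the lower wild-type array and of 0.063 to the lower mutant array. Both gaps were smaller than 0.19, the median difference between the overexpressor arrays over all tested probe sets. The LHW level in the mutant differed by 0.06 from that in wild type (SE 0.148, 95% interval -0.29 to 0.41, limma adjusted p = 0.828). The overexpressor differed from wild type by -0.10 (95% interval -0.45 to 0.25, limma adjusted p = 0.726) and from the mutant by -0.16 (95% interval -0.51 to 0.19, limma adjusted p = 0.477). The largest change within these 3 intervals is a 1.43-fold lower level.

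CLE41, the one peptide precursor among the 5, was at 4.89 and 4.72 on the wild-type arrays, at 4.86 and 5.23 on the mutant arrays and at 5.07 and 4.79 on the overexpressor arrays. The arrays of all 3 groups overlapped. Wild type had a mean of 4.80 ± 0.12, the mutant of 5.04 ± 0.26 and the overexpressor of 4.93 ± 0.20 (SD, n = 2 each). The level in the mutant differed by 0.24 from wild type (SE 0.192, 95% interval -0.21 to 0.69, limma adjusted p = 0.446) and the overexpressor by 0.12 (95% interval -0.33 to 0.58, limma adjusted p = 0.746). The difference of the mutant was 0.055 without mutant array 2 and 0.425 without mutant array 1. Between the lines the difference was -0.11 (95% interval -0.57 to 0.34). Its order of mutant, overexpressor and wild type thus rested on steps of 0.11 and 0.12, each smaller than the SD of the mutant arrays.

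AT5G02460 was at 2.25 and 2.24 on the wild-type arrays, at 2.25 on each mutant array and at 2.30 and 2.27 on the overexpressor arrays. All 6 values were under the 25th percentile of their array, near the floor of GCRMA values, where a fold change is limited by background. The overexpressor mean was 2.28 ± 0.021 (SD, n = 2) against 2.24 ± 0.0071 in wild type, a difference of 0.04. With quantile normalization added this difference was 0.00078. In a fit with no filter on low values the limma adjusted p was 0.977 for mutant against wild type, 0.458 for overexpressor against wild type and 0.504 between the lines. The array gave no level of this Dof gene above the floor in any group.

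GUT2 stood apart through a single array. It was at 4.52 and 4.58 in wild type, at 4.52 and 4.54 in the overexpressor, and at 3.33 and 4.54 on the mutant arrays. Mutant array 1 was therefore lower by 1.21 log2 units than mutant array 2, while mutant array 2 lay among the wild-type and overexpressor arrays. The mutant mean was 3.94 ± 0.85 (SD, n = 2) against 4.55 ± 0.044 in wild type and 4.53 ± 0.0093 in the overexpressor. GUT2 in the mutant differed by -0.62 from wild type (SE 0.355, 95% interval -1.46 to 0.22, limma adjusted p = 0.290) and the overexpressor exceeded the mutant by 0.59 (95% interval -0.25 to 1.43, limma adjusted p = 0.285).

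Leaving out mutant arrays decided this value. Without mutant array 1 the GUT2 difference from wild type was -0.013 (limma adjusted p = 0.982), and without mutant array 2 it was -1.22 (limma adjusted p = 0.0474), which passed. Between the lines the same omissions gave -0.011 (limma adjusted p = 0.978) and 1.20 (limma adjusted p = 0.0437). In each such fit the 1 mutant array left is assumed to vary as the other groups do. In the overexpressor against wild type GUT2 differed by -0.024 (95% interval -0.86 to 0.82, limma adjusted p = 0.977), an interval made wide by the spread of the mutant arrays, which the 3 groups share in one fit. With the 4 arrays of that comparison alone the SE was 0.152 in place of 0.355.

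**Figure D2:**
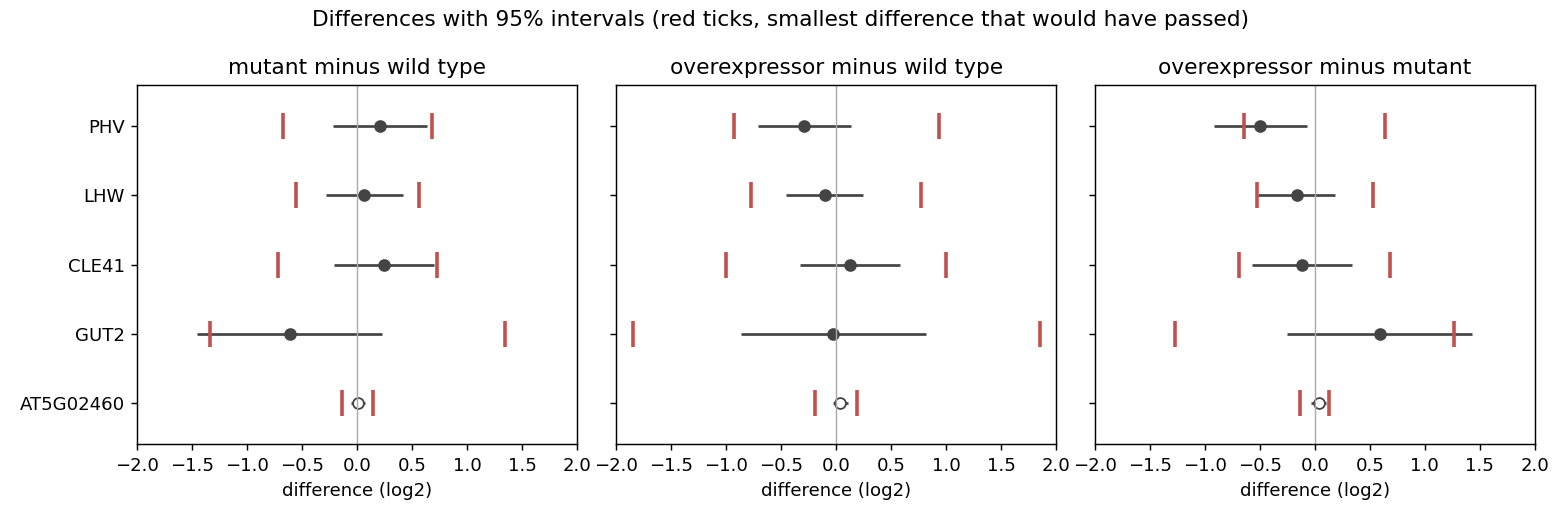
Differences of group means on the log2 axis with 95% intervals from limma for the 5 genes in the 3 comparisons, and red ticks at the smallest difference that would have passed for that gene; the open circles of AT5G02460 come from the fit with no filter. Every point lies inside its ticks, among the 4 tested genes PHV in overexpressor minus mutant comes nearest to its tick, and GUT2 has the widest intervals.

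In the mutant against wild type 14% of the 12363 tested probe sets passed at an adjusted p below 0.05, and none of the 4 tested genes did. The share was 2.53% in the overexpressor against wild type and 18.4% in the overexpressor against the mutant, again with none of the 4. Counting arrays that do not overlap, PHV and LHW were lower in the overexpressor than in wild type and than in the mutant. The same held for 28.5% of tested probe sets against wild type and 33.3% against the mutant, so 2 of 4 genes is no more than a description.

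For each gene the smallest difference that would have passed follows from its SE and the largest p that passed in the comparison. In the mutant against wild type this was 0.56 for LHW, a 1.47-fold change, 0.68 for PHV (1.597-fold), 0.72 for CLE41 (1.65-fold) and 1.34 for GUT2 (2.53-fold). In the overexpressor against wild type, where fewer probe sets passed, it was 0.77 for LHW (1.70-fold), 0.93 for PHV (1.91-fold), 1.0 for CLE41 (2.0-fold) and 1.85 for GUT2 (3.60-fold). In the overexpressor against the mutant it was 0.53 for LHW, 0.64 for PHV, 0.69 for CLE41 and 1.27 for GUT2. A gene that did not pass lies under its own size by construction, so these sizes add no test. They give the scale of change that would have been called, and not passing is not evidence that the transcripts were equal.

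PHV, LHW and CLE41 shared 1 feature, that their highest value was on mutant array 2. That array held the highest value of 18.6% of all tested probe sets. The probe set for 25S ribosomal RNA, a control on the array, was at 11.2 on mutant array 2, at 8.03 on mutant array 1 and between 5.86 and 6.61 on the other 4 arrays, and its part in these values was not tested. On mutant array 1, where GUT2 was low, 19.4% of tested probe sets had their lowest value. The share was highest, at 25.2%, on overexpressor array 2, where PHV had its lowest value. LHW was also lowest there, but by only 0.0016 below overexpressor array 1. On mutant array 1 the GAPDH control was brighter at its 3' end than at its 5' end by 1.80 log2 units, against 1.39 on mutant array 2, 1.12 and 1.42 for wild type and 1.72 and 1.92 for the overexpressor, and its part in the GUT2 value was not tested either.

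The spread of GUT2 and of LHW also went with how their values were printed. Most probe sets are given to 2 decimals. GUT2 is given to more decimals on all 6 arrays, as 411 tested probe sets are in wild type and mutant, and LHW on the overexpressor arrays alone, as 340 are there. The 2 overexpressor arrays differed for LHW by 0.0016, and only 4.09% of tested probe sets given to 2 decimals differed there by less than 0.02, against 41.2% of those given to more. Between the mutant arrays no tested probe set given to 2 decimals differed by more than 1.11, less than the 1.21 of GUT2, while 11.2% of those given to more decimals differed by at least as much as GUT2. The SD of GUT2 in the mutant and that of LHW in the overexpressor therefore belong to a class of values with both very close and very distant replicates, and the sources used here do not say what made that class.

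**Figure D3:**
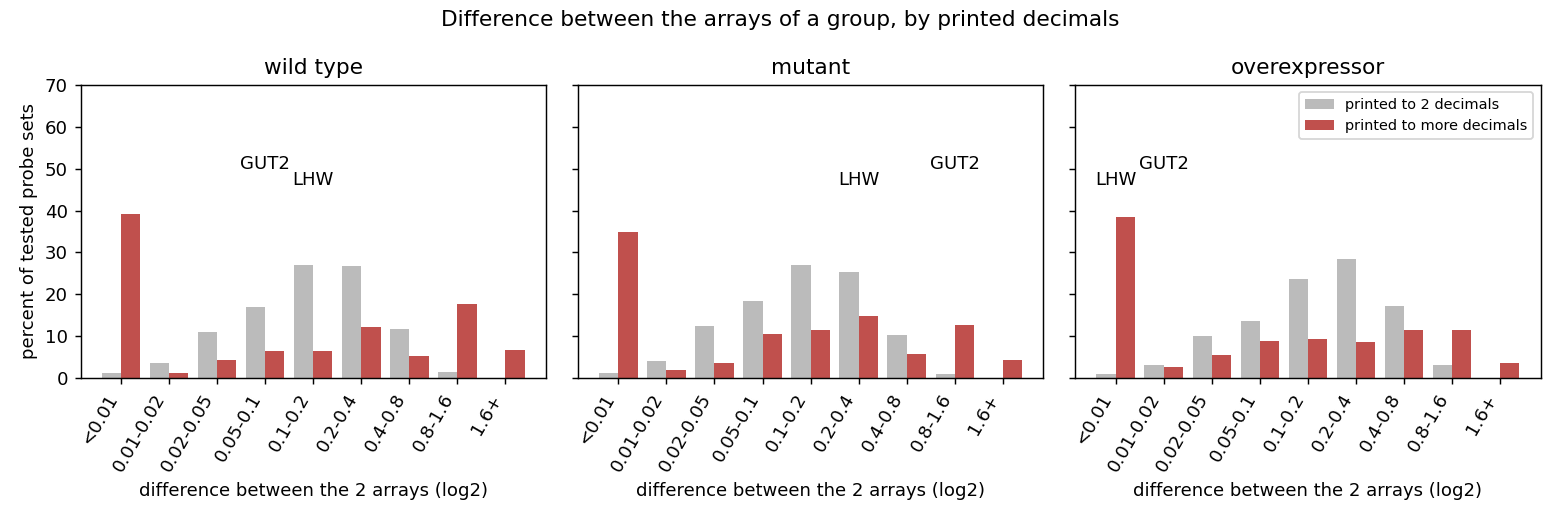
Share of tested probe sets, in percent, by the absolute difference between the 2 arrays of a group on the log2 scale, for probe sets printed to 2 decimals (grey) and to more decimals (red); the gene names mark the bins of GUT2 and LHW. The bin of GUT2 in the mutant holds 12.7% of probe sets with more decimals and 0.962% of the others, and that of LHW in the overexpressor 38.5% and 0.882%.

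Of 80 genes in 6 lists around these 5 genes, 14 could be read by name, the 5 included, and 10 of these were tested. None of the 10 passed in any of the 3 comparisons, where 14%, 2.53% and 18.4% of all tested probe sets did. The lists cover HD-ZIP III and KANADI factors, TDIF signalling, LHW and its partners, xylan synthesis, secondary wall cellulose and lignin, and vascular Dof factors. For the HD-ZIP III and KANADI list PHV was the 1 measured gene of 11, and for the LHW list LHW was the 1 of 14. No gene of the cellulose and lignin list was measured by name.

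Beside GUT2, the xylan list held 2 tested genes. GUT1 (AT5G61840), the close paralogue of GUT2, was at 6.96 and 7.06 on the wild-type arrays, 6.73 and 7.00 on the mutant arrays and 6.86 on each overexpressor array. GUT1 was thus lowest on mutant array 1, at 6.73 beside 6.86 to 7.06 on the other 5 arrays. GUT2 and 19.4% of all tested probe sets were lowest there too. The overexpressor values of GUT1 are given to more than 2 decimals. The GUT1 difference was -0.14 in the mutant against wild type (SE 0.137, limma adjusted p = 0.522). IRX15-L (AT5G67210), which acts in xylan synthesis in secondary walls, was at 6.34 and 6.18 on the wild-type arrays, 5.3 and 5.76 on the mutant arrays and 6.05 and 4.82 on the overexpressor arrays. The overexpressor arrays lay under both wild-type arrays, as was so for 28.5% of tested probe sets. The difference from wild type was -0.73 in the mutant (SE 0.377, limma adjusted p = 0.241) and -0.83 in the overexpressor (SE 0.377, limma adjusted p = 0.269), and neither passed. IRX15 stood between 2.17 and 2.28 on the 6 arrays, near the floor. The median difference of the 3 tested xylan genes was -0.62 in the mutant and -0.15 in the overexpressor against wild type, beside -0.010 and -0.045 over all tested probe sets. The first median is the value of GUT2 itself, and without mutant array 1 it was -0.013.

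Beside CLE41, the TDIF list held 2 tested genes, AT4G28650 and AT1G08590. AT4G28650 was at 4.97 and 4.95 on the wild-type arrays, 5.29 and 5.39 on the mutant arrays and 4.92 and 4.42 on the overexpressor arrays. Its overexpressor arrays lay lower without overlap, as was so for 28.5% of tested probe sets against wild type and 33.3% against the mutant. AT4G28650 differed by 0.38 between mutant and wild type (limma adjusted p = 0.237) and by -0.67 between overexpressor and mutant (SE 0.194, limma adjusted p = 0.0557). AT1G08590 was at 5.18 on wild-type array 2 and between 4.36 and 4.46 on the other 5 arrays. CLE44, which encodes the same peptide as CLE41, was under the filter, between 3.08 and 3.35 on the 6 arrays. AT5G59305, also under the filter, was at 4.07 on overexpressor array 2 and between 2.69 and 2.90 elsewhere.

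Beside AT5G02460, the Dof list held AT4G24060 and AT1G29160, both tested. AT4G24060 differed by -0.33 in the mutant against wild type (SE 0.18, limma adjusted p = 0.266) and by -0.28 in the overexpressor (limma adjusted p = 0.424). AT1G29160 differed by 0.28 in the mutant (SE 0.177, limma adjusted p = 0.343) and by 0.045 in the overexpressor (limma adjusted p = 0.907). The 2 stood on opposite sides of wild type in the mutant, and neither difference passed.

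**Figure D4:**
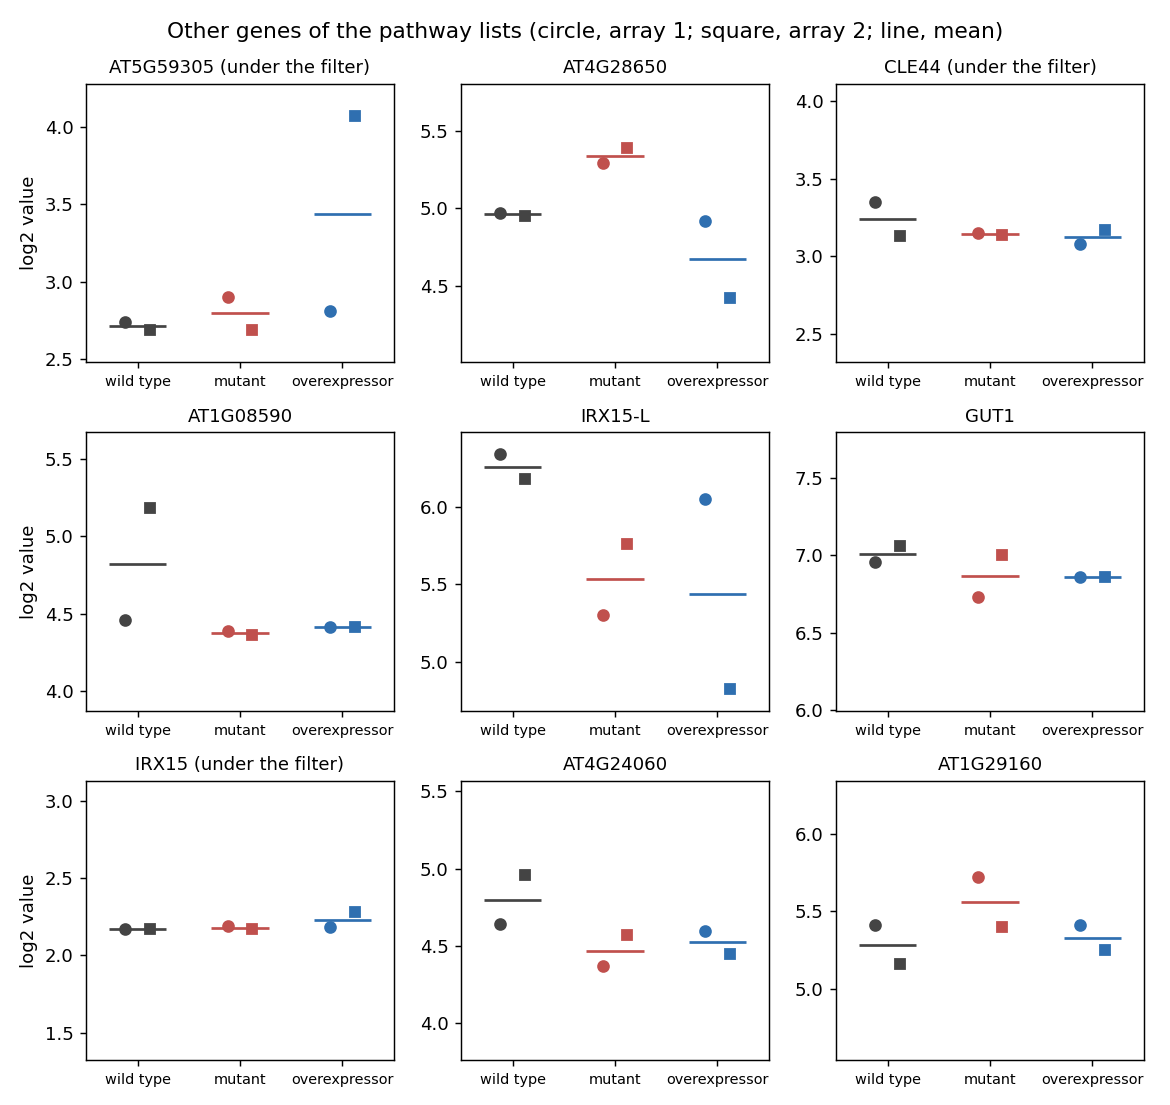
Log2 GCRMA expression values of the other 9 genes of the lists that have a named probe set, on each array, with circles for array 1, squares for array 2 and lines for group means; panels span the same height. IRX15-L has its highest mean in wild type, GUT1 stays between 6.73 and 7.06, and the 3 genes under the filter are so marked.

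The genes whose profile over the 6 arrays was most like that of each of the 5 were taken by Pearson correlation among 6531 other tested probe sets with 1 gene name (6532 for AT5G02460, itself not tested). With 6 points from 3 groups such correlations are a description only. The genes AT5G13400 and AT2G27080 followed PHV at r = 0.991 and 0.990, and 2.24% of the probe sets reached 0.9. AT5G13400 had means of 6.82 in the mutant, 6.49 in wild type and 6.04 in the overexpressor, the order seen for PHV. AT3G63510 and AT4G27652 followed LHW at r = 0.975 and 0.962. AT1G62030 and AT3G61550 followed CLE41 at r = 0.997 and 0.989, where 0.429% of the probe sets reached 0.9. AT5G53050 and AT2G01260 followed GUT2 at r = 0.985 and 0.978. GSTU22 and AT3G51450 followed AT5G02460 at r = 0.990 and 0.986, over a range of 0.06 near the floor. None of these 10 genes passed in any comparison, and the smallest limma adjusted p was 0.0563, for AT5G13400 in the overexpressor against the mutant.

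Markers of the tissues that whole plants contain were read beside these values. Of 58 marker genes in 6 lists 11 could be read by name and 7 of these were tested, and no xylem vessel marker was among them, so the xylem share of the samples was not measured by name. SWEET11, a sucrose exporter of the phloem, was the 1 tested phloem marker other than OPS. Of the 7 tested markers it alone passed in the mutant against wild type, as 14% of all tested probe sets did. It fell in the mutant by 0.78 log2 units against wild type (SE 0.123, limma adjusted p = 0.0102) and was higher in the overexpressor than in the mutant by 0.49 (SE 0.123, limma adjusted p = 0.0358). The first call was lost without wild-type array 2 (limma adjusted p = 0.0534) and without mutant array 1 (0.0851), and the second without any 1 of the 6 arrays (0.0544 to 0.186). In the comparison of overexpressor and mutant, in which PHV had its smallest p, 2 more markers passed. OPS, 1 of the 7 tested markers, is the gene that this line overexpresses, so its higher level there was set by the design. It passed the filter through the overexpressor arrays alone and is no reading of tissue. Of the other tested markers SWEET11 was higher and 2 were lower in this comparison, where 18.4% of all tested probe sets passed. PYK10, a root beta-glucosidase, was lower in the overexpressor, at -0.375 against the mutant (SE 0.0973, limma adjusted p = 0.0395) and AT1G22690, entered in the leaf list, stood at -0.59 (SE 0.117, limma adjusted p = 0.018). Both calls were lost without mutant array 1, mutant array 2 or overexpressor array 2, with limma adjusted p of up to 0.221 for PYK10 and 0.117 for AT1G22690, whose difference in these 3 fits stayed between -0.605 and -0.555, while that of PYK10 lay between -0.435 and -0.29. The root hair expansin genes EXPA7 and EXPA18 differed there by -0.12 and 0.15 and the stomatal lineage gene FMA by 0, and none of these 3 passed. The part of tissue proportions in the PHV difference was not tested.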

How the data were processed

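Total RNA of whole plants (15 µg per sample, per the labels) was read on ATH1 arrays after amplification and biotin labelling. The authors deposited 1 log2 expression value per probe set and array; the submitters' processing notes name GCRMA, and the log2 scale was read from the values. The sources used here do not say which arrays were normalised together. Gene names came from the platform annotation (13513 with 1 gene, 503 with several, 8794 of 22810 not listed) and the TAIR10.1 gene table of RefSeq; coordinates are left out, since no build is stated for the array.

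All 6 arrays entered 1 fit in limma 3.58.1 (R 4.3.3; lmFit, eBayes, two-sided, with the prior variance following the mean level) without covariates, checked on simulated data. The 64 control probe sets were left out, 12363 probe sets averaging 4 or more were tested, and Benjamini-Hochberg adjustment ran over all of them, with a threshold of 0.05. Intervals are 95% intervals of that fit. Alternatives changed the filter, normalization, scaling, variance prior, arrays in the fit, replicate block, and left out each array. The 5 genes and the lists were chosen with earlier results of these data known. Named beside the 5 genes are up to 4 tested genes per list and the 2 genes most correlated with each; genes under the filter, SWEET11 and the other markers were named in addition.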

Additional observations from a re-analysis of the deposited data

How the results depend on the processing

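The 4 tested genes gave 12 differences, and none passed under no filter, quantile normalization, median centring, eBayes without a trend or a fit of the 4 arrays compared; all 5 genes have a mean under 6, so a filter at 6 gave no value for them. With quantile normalization GUT2 in the overexpressor against wild type turned from -0.024 to 0.0076. With 1 array left out, the signs of small differences turned. LHW ranged from -0.04 to 0.16 in the mutant against wild type, and GUT2 from -0.056 to 0.0070 in the overexpressor against wild type. CLE41 ranged from -0.015 to 0.265 in the overexpressor against wild type and from -0.3 to 0.07 between the lines. The GUT2 difference between the lines was not small, at 0.59 with all 6 arrays. It was 1.20 without mutant array 2 and turned to -0.011 without mutant array 1.

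The count of probe sets that passed was 1736 in the mutant against wild type, and 1009 without a filter. It was 683 and 810 without wild-type array 1 or 2, 167 and 278 without mutant array 1 or 2, and at most 1807 with 1 array left out. In the overexpressor against wild type it was 313, with 191 at a minimum mean of 6 and 75 when the fit held only the 4 arrays compared. It was 57 and 109 without wild-type array 1 or 2, 80 and 75 without mutant array 1 or 2, 83 without overexpressor array 2 and at most 373 with 1 array left out. Between the lines it was 2269, with 503 and 363 without mutant array 1 or 2, 1095 without overexpressor array 2 and at most 1931 with 1 array left out. Fits with 1 array in a group have fewer samples, and the counts both fell and rose in them. The causes were not tested.

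The replicate numbers are shared by the groups, and the labels do not say that they mark a shared batch. Deviations of same-numbered arrays correlated at -0.24 between wild type and mutant, 0.16 between wild type and overexpressor and -0.31 between the lines. With the number as a replicate block 118 probe sets passed in the overexpressor against wild type, and none of the 12 differences of the tested genes passed.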
